A study of Mus musculus with 8 samples.

Results

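Cholangiocytes, the epithelial cells that line the bile ducts, were examined in single-cell RNA sequencing of whole liver from 8 wild-type C57BL/6 mice, and 261 of 80474 kept cells were assigned to them. The control group comprised 2 mice on normal diet and drinking water. The groups with nonalcoholic steatohepatitis (NASH) and fibrosis comprised 3 mice on high-fat diet (HFD+F+CCl4) and 3 on western diet (WD+F+CCl4), and all 6 of these drank fructose solution and received carbon tetrachloride (CCl4), a liver toxin, by intraperitoneal injection over 16 weeks. Diet, fructose and CCl4 were given together in both models, so their effects cannot be told apart. The cells were chosen by their measured counts of unique molecular identifiers (UMIs, each standing for 1 captured transcript): at least 3 UMIs of Epcam, Krt19 and Krt7 together, none of Csf1r, Cd3e, Cd79a or Siglech, over 500 genes detected and under 25% mitochondrial UMIs. These 7 genes are therefore described, and no test of them is reported.

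Cholangiocytes modify bile after hepatocytes have secreted it: they exchange chloride and bicarbonate, sense flow through a primary cilium and coat the duct with mucins. In chronic liver injury they proliferate together with progenitor-like epithelium, which is called a ductular reaction, and secrete chemokines and matrix-active proteins near the portal tract. Sox9 is a transcription factor of biliary identity, and Krt8 and Krt18 encode the simple-epithelial keratins that cholangiocytes share with hepatocytes.

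The markers that the selection did not use fitted the name for most of the cells. Of the 261 cells, 216 held UMIs of all 3 of Sox9, Krt8 and Krt18, 23 held 2 of them, 3 held 1 and 19 held 0. Sox9 was detected in 86.6% of the cholangiocytes against 6.56% of 244 hepatocytes, and Pkhd1, which encodes the cilium protein fibrocystin, in 68.6% against 0.410%. Cftr, the chloride channel of the duct epithelium, had a UMI in 25.3% of cholangiocytes and in 0 of 244 hepatocytes, which allows a share of up to 1.23% of cells with a UMI at their depth. Median depth was 5801 UMIs in cholangiocytes and 1766 in hepatocytes. With every cell thinned to 2000 UMIs (257 cholangiocytes and 104 hepatocytes were deep enough), Sox9 was detected in 72.0% against 5.77%, Krt8 in 85.2% against 52.9%, and Cftr in 11.7% against 0%.

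The 19 cells without Sox9, Krt8 or Krt18 went against the label. All 19 held Epcam UMIs, 0 held Krt19 and 1 held Krt7. In 15 of them Ptprc, the pan-leukocyte antigen CD45, had at least 4 UMIs, and 10 held UMIs of Flt3, a dendritic cell receptor. Their median count of Cd74, the MHC class II invariant chain, was 155 UMIs against 3 in the cells with 2 or 3 of the markers. Of the 19 cells, 13 came from HFD+F+CCl4 mice 2 and 3. Several immune genes and sums of immune lists are therefore also given for the cells that held at least 2 of the 3 markers.

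The cutoffs also left cells out. At the threshold, 39 cells held exactly 3 UMIs of Epcam, Krt19 and Krt7, and 64.1% of them had at least 2 of Sox9, Krt8 and Krt18. Among the 74 cells just outside, with 2 UMIs, the share was 32.4%. A total of 644 cells held 3 or more UMIs of the epithelial genes, and 383 of them were left out for a UMI of an immune gene, 355 through Csf1r, the colony stimulating factor 1 receptor of macrophages. Of the 383, 81.2% had at least 2 of Sox9, Krt8 and Krt18, and their median depth was 10155 UMIs. In 123 of them the immune signal was a lone Csf1r UMI. Before Csf1r was required to be absent, 17.6% of the T cells held a Csf1r UMI as well. Within the 261 cells, 26 (9.96%) ranked as doublets against 9.26% of all kept cells, and 0 held 10% or more of their UMIs from hepatocyte markers. Mesothelial genes (Msln, Upk3b, Upk1b, Lrrn4) were seen in 6. A barcode was shared with a kept cell of another library in 8 of the cells and with another cholangiocyte in 0.

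The libraries differed before any comparison of the cells. Total UMIs per library were 36699315 and 6135827 in control mice 1 and 2, 49738207, 52880918 and 55186165 in HFD+F+CCl4 mice 1 to 3, and 62694610, 46275590 and 64855024 in WD+F+CCl4 mice 1 to 3. Control mouse 2 was thus the shallowest library. The cholangiocytes of those mice held 103829 and 12916 UMIs, then 377634, 233265 and 171987, then 4198, 289564 and 673987. WD+F+CCl4 mouse 1 contributed 1 cell. Several genes also set both control libraries apart in all cells. The mitochondrial gene mt-Nd3 stood at 3.11 and 4.53 UMIs per 1000000 UMIs (CPM) in the other kept cells of control mice 1 and 2 and between 518 and 1403 CPM in those of the 6 NASH mice. Gm28438 showed the opposite, with 457 and 259 CPM against 0.155 to 1.37 CPM. These differences ran through all cells of the libraries, and library and group cannot be told apart for such genes.

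The share of cholangiocytes varied widely between mice, most of all within the WD+F+CCl4 group. Control mice 1 and 2 yielded 17 and 4 cholangiocytes, or 0.158% (95% exact binomial interval 0.0918 to 0.252) and 0.0960% (0.0262 to 0.246) of their kept cells. HFD+F+CCl4 mice 1 to 3 yielded 60, 30 and 20 cells, or 0.537% (0.410 to 0.690), 0.296% (0.200 to 0.423) and 0.188% (0.115 to 0.290). WD+F+CCl4 mice 1 to 3 yielded 1, 41 and 88 cells, or 0.00833% (0.000211 to 0.0464), 0.416% (0.299 to 0.564) and 0.751% (0.603 to 0.925). The lowest and the highest share of all mice both fell in the WD+F+CCl4 group, and 5 of the 6 NASH mice lay above both control mice. The control libraries were the shallower ones, with median depths of 2397 and 992.5 UMIs per kept cell against 3159 to 4278 in the NASH mice. When every cell was first thinned to 800 UMIs, the selection found 7 of 10622 and 1 of 3426 cells in control mice 1 and 2, 25 of 11030, 1 of 9961 and 3 of 10588 in HFD+F+CCl4 mice, and 0 of 11908, 8 of 9732 and 22 of 11662 in WD+F+CCl4 mice. At that equal depth 3 of the 6 NASH mice lay above both control mice. The intervals cover counting error only.

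The group means were 0.127% ± 0.0436 (SD, n = 2) in control mice, 0.340% ± 0.179 (SD, n = 3) in HFD+F+CCl4 mice and 0.392% ± 0.372 (SD, n = 3) in WD+F+CCl4 mice. The mean of the 6 NASH mice exceeded that of the control mice by 0.239 percentage points, with p = 0.25 in a two-sided exact permutation test whose smallest possible p was 0.0357. After thinning to 800 UMIs the difference was 0.0418 points (exact permutation test, p = 0.75). The WD+F+CCl4 mean exceeded the HFD+F+CCl4 mean by 0.0517 points (two-sided exact permutation test, p = 0.9, smallest possible 0.1). That second difference became -0.128 points without WD+F+CCl4 mouse 3 and -0.0246 without HFD+F+CCl4 mouse 3. A share of dissociated cells depends on which cells survive dissociation, and its part in these values was not tested.

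**Figure D1:**
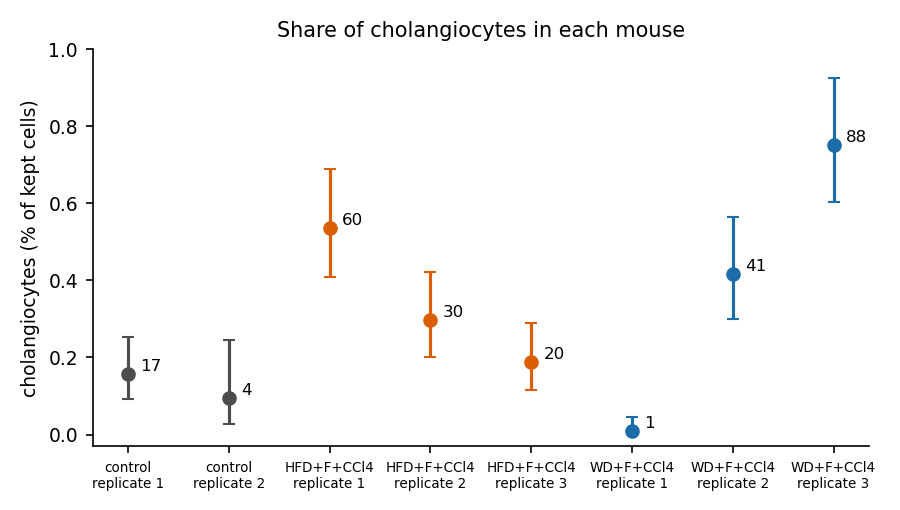
Share of kept cells that were cholangiocytes (y axis, percent) in each of the 8 mice (x axis, by group and replicate); points are the shares, bars their 95% exact binomial intervals and the numbers beside them the cells. The shares run from 0.00833% in WD+F+CCl4 mouse 1 to 0.751% in WD+F+CCl4 mouse 3, and the 2 control mice lie at 0.158% and 0.0960%.

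To describe the expression program that the selection did not use, cholangiocytes were compared with hepatocytes, the other epithelial cells of the liver, in the 5 mice with at least 10 cells of each type (mouse 1 of the control group, mice 1 and 2 of HFD+F+CCl4, mice 2 and 3 of WD+F+CCl4). UMIs were summed per mouse and type, and edgeR's quasi-likelihood test was fitted with the mouse as a block. Of 1811 genes tested, 339 (18.7%) were higher and 336 (18.6%) lower in cholangiocytes at an adjusted p under 0.05. When libraries were scaled by total UMIs alone, the split was 560 higher and 205 lower. The 2 cell types also differed in depth, and the hepatocytes were selected on a high share of hepatocyte transcripts, so genes of either selection were left out of the counts. Krt18 stood at 18.5 and 0 CPM in hepatocytes of control mice 1 and 2 and at 226 to 832 CPM in those of NASH mice. Of 8 tested myeloid markers 3 were lower in cholangiocytes and 0 higher. The part of free RNA and of leukocytes in the hepatocyte values, here and below, was not tested.

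The tested genes of biliary identity were higher in cholangiocytes. Of 24 listed identity and Notch pathway genes in the files, 7 passed the filter on low counts and all 7 were higher. With every gene of at least 1 count, 15 of 23 passed, all higher. The share of all genes that passed at this setting is not given, so its list counts are described only, here and below. Sox9 stood at 1233 CPM in the cholangiocytes of control mouse 1, 964 and 664 in HFD+F+CCl4 mice 1 and 2, and 763 and 712 in WD+F+CCl4 mice 2 and 3, against 9.26, 53.7, 25.1, 21.7 and 28.2 CPM in the hepatocytes of the same mice. Sox9 was higher in cholangiocytes in 5 of 5 mice (log2 fold change 4.57 ± 0.35 SE, edgeR adjusted p = 1.47e-05). Hes1, an effector of Notch signaling, was higher by a log2 fold change of 2.30, and Onecut2, a transcription factor of liver and duct development, by 2.27. For other genes the hepatocytes held a few UMIs at most, so that levels are given and no fold. Sox4, a related transcription factor of duct development, stood at 647 to 1083 CPM in the cholangiocytes of the 5 mice and at 0 to 10.7 CPM in their hepatocytes. Ehf, an epithelial Ets factor, stood at 193 to 356 CPM against 0 to 10.8 CPM. Tead1, the DNA-binding partner of YAP, was at 145 CPM over all cholangiocytes and 7.30 CPM over all hepatocytes.

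Structural and secretory genes of the duct were also mostly higher among those tested. All 13 tested genes of keratins, adhesion and tight junctions were higher, among them Cdh1 (log2 fold change 3.59), which encodes E-cadherin. The tight junction claudin Cldn7 stood at 491 to 755 CPM in cholangiocytes of the 5 mice and Prom1, which encodes the progenitor antigen CD133, at 176 to 328 CPM, and both had 0 UMIs in the hepatocytes of these mice, so that no fold is given. The keratins that both types express differed by 1.70 ± 0.46 for Krt8 and 1.89 ± 0.39 for Krt18, and the mice were not alike. In control mouse 1 Krt8 stood at 1329 CPM in cholangiocytes and 27.8 CPM in hepatocytes, whereas the hepatocytes of the 4 NASH mice in this fit held 469 to 932 CPM against 1243 to 2521 CPM in their cholangiocytes. Of 10 tested genes of mucins and mucosal secretion 8 were higher, including Pkhd1 (202 to 448 CPM, with 0 UMIs in hepatocytes of these mice), Bicc1 (780 to 1070 CPM against 0 to 42.9 CPM in hepatocytes), Muc1 (116 to 299 against 0 to 9.39 CPM) and Clu (log2 fold change 3.72), which encodes the secreted chaperone clusterin. Of 4 tested genes of bile transport 3 were higher, among them the sodium glucose cotransporter Slc5a1 (125 to 241 CPM, with 0 UMIs in hepatocytes of these mice) and the sodium pump beta subunit Atp1b1 (log2 fold change 4.40). A gene absent or nearly absent from hepatocytes could pass the filter on low counts through cholangiocytes alone, and such a gene could only come out higher. With every gene of at least 1 count, 28 of 36 keratin, adhesion and junction genes were higher and 0 lower. At that setting 11 of 17 mucin genes were higher and 2 lower, and 13 of 33 bile transport genes were higher and 3 lower. These counts stand without the share of all genes and are described only.

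Of 14 tested genes of the ductular reaction 10 were higher. Spp1, which encodes the matrix protein osteopontin, was counted at 11856 CPM in cholangiocytes of control mouse 1, 18968 and 15317 in HFD+F+CCl4 mice 1 and 2, and 15917 and 19981 in WD+F+CCl4 mice 2 and 3. Hepatocytes of these mice held 27.8, 708, 260, 32.5 and 75.1 CPM of it, and the types did not overlap (log2 fold change 6.66 ± 0.77 SE, edgeR adjusted p = 0.000153). Tspan8, a tetraspanin of epithelial surfaces, stood at 279 to 806 CPM in cholangiocytes of the 5 mice and 0 to 18.8 CPM in their hepatocytes. With every gene of at least 1 count, 14 of 23 genes of this list were higher and 0 lower, a count described without the share of all genes.

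Many of the tested metabolic genes were lower in cholangiocytes. Of 18 tested antioxidant and detoxification genes 12 were lower and 0 higher, among them Cat (-2.50), which encodes catalase, and the glutathione transferase Gstp1 (-2.82). Scaled by total UMIs alone, 10 were lower and 1 higher. Of 12 tested genes of fatty acid, lipid droplet and sterol metabolism 7 were lower and 1 higher. Without HFD+F+CCl4 mouse 1, 5 of 11 were lower. With every gene of at least 1 count, 19 of 34 antioxidant genes were lower and 1 higher, and 16 of 39 lipid and sterol genes were lower and 4 higher. Here too the share of all genes at that setting is not given, and the counts are described only. The stearoyl-CoA desaturases differed: Scd1 was lower by a log2 fold change of -6.43 ± 0.45 and its paralog Scd2 higher by 3.38 ± 0.44 (edgeR adjusted p = 1.24e-05 and 0.000316). Scd1 lay at 57.8, 34.4, 12.9, 38.0 and 68.3 CPM in the cholangiocytes of the 5 mice and at 963 CPM or more in their hepatocytes. None of the 6 tested genes of MHC class I presentation and none of the 4 of class II passed this edgeR test. Scaled by total UMIs alone, 4 of the 6 class I genes were higher, and without control mouse 1, 7 of 10 class I and 3 of 5 class II genes were. Without control mouse 1, 1561 genes of 3182 tested passed, and without HFD+F+CCl4 mouse 1, 436 of 1827.

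**Figure D2:**
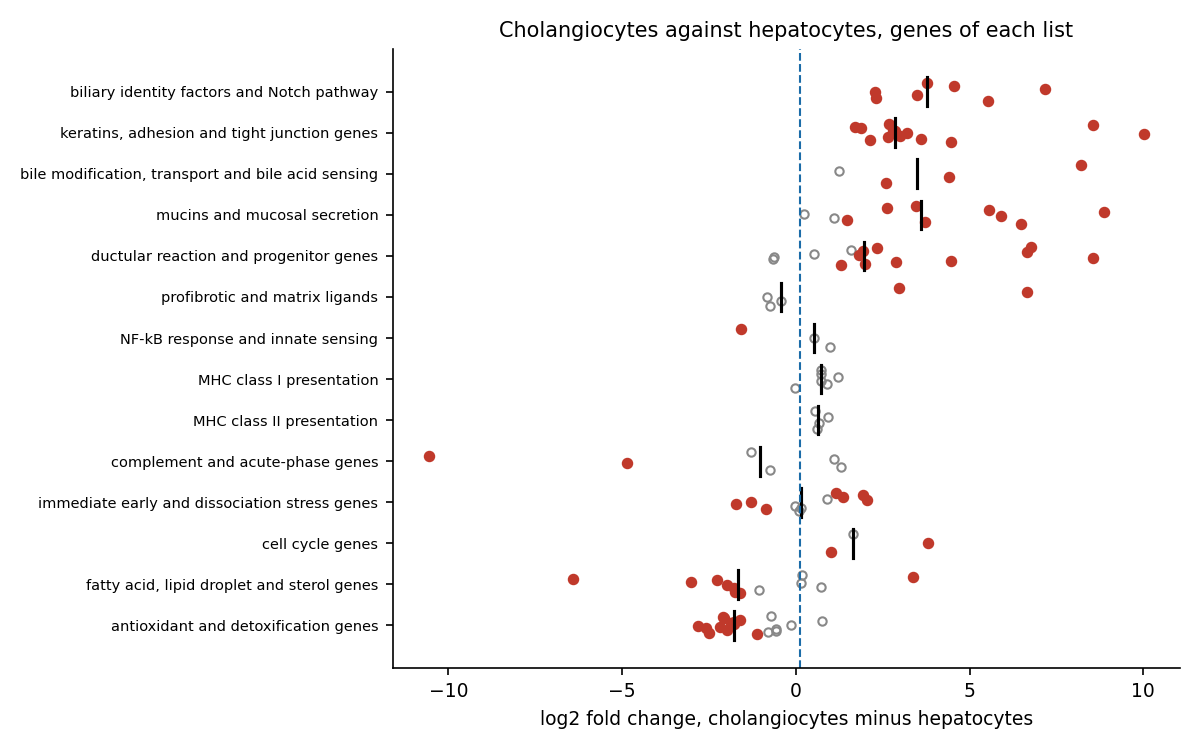
Log2 fold change of cholangiocytes over hepatocytes (x axis) for the tested genes of each list with 3 or more of them (y axis), the lists of cell type markers left out; filled points passed the edgeR test, open points did not, short black lines are list medians and the dashed line is the median of all 1811 genes. All points of the identity list (7 genes) and of the keratin, adhesion and junction list (13 genes) are filled and lie to the right, and 12 of the 18 antioxidant genes are filled and lie to the left.

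The next comparison asked how cholangiocytes of NASH mice differed from those of control mice. Only the 6 mice with 10 or more cholangiocytes entered this fit. They were control mouse 1, the whole HFD+F+CCl4 group, and mice 2 and 3 of WD+F+CCl4. With 1 control mouse in the fit, its cells were assumed to vary between mice like those of the NASH groups, and control mouse 2, with 4 cells, served only for its values. In bulk sums of this kind, a gene that is lower in every cell and a gene with fewer positive cells cannot be told apart. Of 7327 genes tested by edgeR, 4 (0.0546%) were higher and 11 (0.15%) lower in NASH, and 611 had an unadjusted p under 0.05. The median log2 fold change of all genes was 0.11. In data simulated from these samples, where 200 genes were given a log2 fold change of 2, the same test recovered 14% of them, so that a gene that did not pass is not shown to be unchanged. Without HFD+F+CCl4 mouse 1, 44 genes passed, and without HFD+F+CCl4 mouse 3, 28.

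Mmp7, which encodes the secreted metalloproteinase matrilysin, was present in NASH cholangiocytes and not detected in those of control mice. Control mice 1 and 2 held 0 and 0 UMIs of it. HFD+F+CCl4 mice 1 to 3 held 437, 279 and 297 CPM, and WD+F+CCl4 mice 1 to 3 held 3811 (16 UMIs in 1 cell), 1392 and 984 CPM. All 6 NASH mice exceeded the 2 control mice. Pooled over all 8 mice, Mmp7 was at 779 CPM in NASH against a limit of 25.7 CPM set by 3 counts over the control group. Among the selected cells it was thus at least 30.3-fold higher. Mmp7 passed the edgeR test, whose fit held 6 of the mice and did not test that fold. The other kept cells held 0.364 and 0.567 CPM of Mmp7 in control mice 1 and 2 and 0.0802 to 34.3 CPM in NASH mice. That limit rests mainly on control mouse 1, which held 103829 of the 116745 control UMIs, and would be looser for control mouse 2 alone. Mmp7 was detected in 149 of 240 NASH cholangiocytes (48.7% after thinning to 2000 UMIs) and in 0 of 21 control ones. The latter allows a share of up to 14.3% of cells with a UMI. Control cholangiocytes were shallower, with medians of 4323 and 2428 UMIs against 5536 to 6824 in the 5 NASH mice of the fit, so this limits detection and not expression. Among 244 hepatocytes it was found in 0, and in 0.356% of 2809 endothelial cells, whose median depth was 2322 UMIs. Allowing 1 UMI of each immune gene, chosen after seeing the data, brought the call to an edgeR adjusted p of 0.0535 (log2 fold change 4.01).

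Ankrd1, a nuclear ankyrin repeat protein known as a transcriptional target of YAP, rose as well. It stood at 9.63 CPM (1 UMI) and 0 in control mice 1 and 2. HFD+F+CCl4 mice 1 to 3 held 450, 262 and 204 CPM, and WD+F+CCl4 mice 2 and 3 held 439 and 1018 CPM, whereas the lone cell of WD+F+CCl4 mouse 1 held none. The 5 NASH mice in the fit all lay above both control mice (log2 fold change 5.65 ± 1.01 SE, edgeR adjusted p = 0.0418). It was detected in 126 of 240 NASH cholangiocytes, 1 of 21 control ones and 0 of 244 hepatocytes. The call was lost without WD+F+CCl4 mouse 3, with DESeq2 or its size factors, and with scaling by total UMIs alone. Sums thinned to the lowest total or allowing 1 UMI of each immune gene also lost it. Of 22 tested YAP targets Ankrd1 was the 1 that passed, and their median log2 fold change was 0.43. Ccn2, another YAP target, had 77.0 and 77.4 CPM in the control mice and between 47.2 and 445 CPM in the 5 NASH mice, and did not pass.

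Lcn2, the iron-siderophore binding protein lipocalin 2, was at 144 and 232 CPM in control mice 1 and 2. The lone cell of WD+F+CCl4 mouse 1, which was outside the fit, held 0 UMIs of it. Lcn2 reached 794, 763 and 1087 CPM in HFD+F+CCl4 mice and 2790 and 1651 CPM in WD+F+CCl4 mice 2 and 3. The 5 NASH mice did not overlap the control mice (log2 fold change 3.36 ± 0.62 SE, edgeR adjusted p = 0.0480). Other cells differed in the same direction: the other kept cells held 18.3 and 17.6 CPM in control mice and 59.0 to 425 CPM in NASH mice, and 47.3% of NASH hepatocytes had an Lcn2 UMI against 3.33% of control ones. The call was lost without HFD+F+CCl4 mouse 2, WD+F+CCl4 mouse 2 or WD+F+CCl4 mouse 3. Removing doublets, a replicate block, DESeq2 size factors, sums thinned to the lowest total or allowing 1 UMI of each immune gene also lost it.

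The promoters of Mmp7, Ankrd1, Lcn2, Hmgcs1, Idi1 and Tmem45a were read for 3 short motifs, and those of the other genes that passed were not. The window ran from 250 bases before to 50 bases after the RefSeq start on GRCm38.p6. Mmp7 had 2 listed starts, and its window is that of a single start. The motifs were TGANTCA for AP-1, GGAATG for TEAD, the partner of YAP, and TCACNCCAC for SREBP, the regulator of sterol synthesis, each searched on both strands. The promoters of Mmp7, Ankrd1 and Hmgcs1 are shown since each held a match, with the matches in capitals. A match is a description of the letters and not a binding site.
Mmp7 (chr9:7691840-7692139, plus strand): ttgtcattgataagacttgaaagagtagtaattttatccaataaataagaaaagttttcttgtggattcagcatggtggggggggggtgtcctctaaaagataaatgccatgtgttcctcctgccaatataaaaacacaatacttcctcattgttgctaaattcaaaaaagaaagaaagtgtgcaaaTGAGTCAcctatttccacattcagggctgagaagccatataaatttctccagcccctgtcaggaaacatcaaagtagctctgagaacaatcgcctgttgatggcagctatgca
Ankrd1 (chr19:36119795-36120094, minus strand): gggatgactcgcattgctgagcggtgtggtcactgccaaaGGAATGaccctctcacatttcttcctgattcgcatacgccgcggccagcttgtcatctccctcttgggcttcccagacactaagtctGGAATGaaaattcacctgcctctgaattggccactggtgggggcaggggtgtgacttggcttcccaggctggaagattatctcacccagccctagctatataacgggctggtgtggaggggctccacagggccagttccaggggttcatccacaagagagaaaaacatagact
Hmgcs1 (chr13:119690101-119690400, plus strand): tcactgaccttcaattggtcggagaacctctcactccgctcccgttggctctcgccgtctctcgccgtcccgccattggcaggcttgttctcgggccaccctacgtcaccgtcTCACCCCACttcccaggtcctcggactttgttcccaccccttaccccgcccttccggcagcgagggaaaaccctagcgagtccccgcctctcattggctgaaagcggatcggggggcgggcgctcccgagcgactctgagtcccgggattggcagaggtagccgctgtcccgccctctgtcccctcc
In Mmp7 TGANTCA began 63 bases before the start, and 7.93% of 27025 promoters of this length held it. In Ankrd1 GGAATG began 210 and 123 bases before the start, a motif held by 14.6% of promoters. In Hmgcs1 TCACNCCAC began 137 bases before the start, and 1.22% of promoters held it. Lcn2, Idi1 and Tmem45a held none of the 3 motifs in this window.

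Hmgcs1 and Idi1, enzymes of sterol synthesis, were lower in NASH cholangiocytes. Hmgcs1, the cytosolic HMG-CoA synthase that starts the mevalonate pathway, stood at 443 and 1239 CPM in control mice 1 and 2. It was at 103, 120 and 122 CPM in HFD+F+CCl4 mice and at 76.0 and 49.0 CPM in WD+F+CCl4 mice 2 and 3, all below both control mice (log2 fold change -2.32 ± 0.37 SE, edgeR adjusted p = 0.0166). Idi1, the isopentenyl diphosphate isomerase of the same pathway, fell from 202 and 155 CPM to 42.4, 47.2 and 40.7 CPM in HFD+F+CCl4 mice and 20.7 and 29.7 CPM in WD+F+CCl4 mice 2 and 3 (log2 fold change -2.48 ± 0.44, edgeR adjusted p = 0.0418). The Idi1 value of control mouse 2 rested on 2 UMIs. Both genes were also lower in the other kept cells of NASH mice: Hmgcs1 was at 61.5 and 76.5 CPM there in control mice and 23.2 to 39.6 CPM in NASH mice, and Idi1 at 31.3 and 51.8 against 5.11 to 16.6 CPM. Whether the fall in cholangiocytes was larger than in endothelial cells was tested and did not pass for either gene. The interactions were -1.28 ± 0.50 for Hmgcs1 and -0.97 ± 0.84 for Idi1. In simulated data this test recovered 6% of genes given a log2 fold change of 2, so it cannot show that the falls were alike. The Hmgcs1 call was lost without WD+F+CCl4 mouse 3, and the Idi1 call without WD+F+CCl4 mouse 2 or mouse 3. Both calls were also lost without cells holding Ptprc, with a replicate block and with sums thinned to the lowest total. The Idi1 call was lost with DESeq2 as well.

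Of 33 tested genes of fatty acid, lipid droplet and sterol metabolism these 2 were lower and 0 higher by edgeR, with a list median of -0.31 on the log2 scale. Other genes of sterol synthesis and its control, picked after their values were seen, had negative values that did not pass: Sqle, the squalene epoxidase (-2.28), Insig1, which retains SREBP (-2.29), Fdps, the farnesyl diphosphate synthase (-1.77), and Cyp51, a demethylase of lanosterol (-1.23). Sqle was counted at 231 and 155 CPM in control mice 1 and 2 and between 17.3 and 71.5 CPM in the 5 NASH mice. The sterol exporters Abca1 and Abcg1 were at 0 UMIs in both control mice. Abcg1 was at 18.5 to 58.1 CPM in the 5 NASH mice and Abca1 at 0 to 69.1 CPM, and neither passed. Scd2, the desaturase that cholangiocytes held above hepatocytes, was at 549 and 852 CPM in control mice and 163 to 332 CPM in these NASH mice (log2 fold change -1.08, edgeR adjusted p = 0.474).

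**Figure D3:**
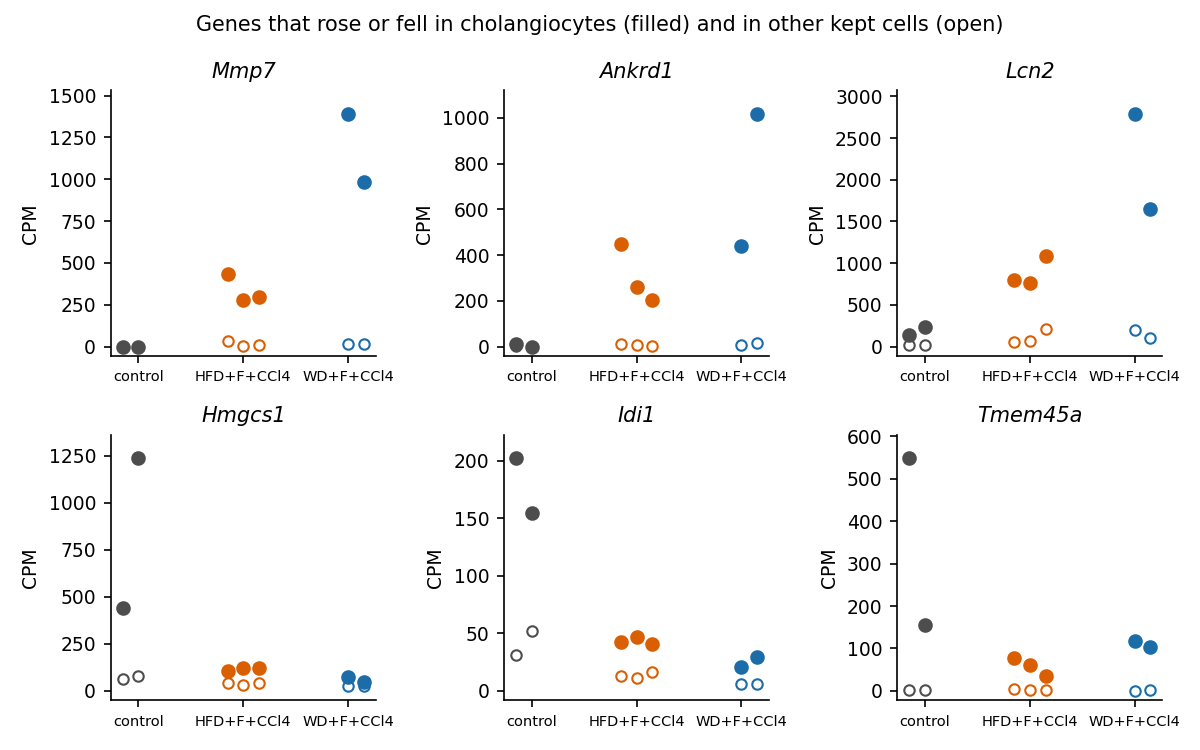
CPM (y axes, linear) of 6 genes in the summed cholangiocytes (filled points) and in all other kept cells (open points) of each mouse, by group (x axes); WD+F+CCl4 mouse 1, with 1 cholangiocyte, is not drawn. Mmp7, Ankrd1 and Lcn2 lie above both control mice in the 5 NASH mice drawn, and Hmgcs1, Idi1 and Tmem45a lie below them.

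Tmem45a, which encodes a transmembrane protein, fell in NASH cholangiocytes. It was at 549 CPM (57 UMIs) and 155 CPM (2 UMIs) in control mice 1 and 2. It was at 76.8, 60.0 and 34.9 CPM in HFD+F+CCl4 mice and at 117 and 102 CPM in WD+F+CCl4 mice 2 and 3. The groups did not overlap (log2 fold change -2.68 ± 0.37 SE, edgeR adjusted p = 0.00402). The other kept cells of the 8 mice held 0.0481 to 5.37 CPM of it, and 1 of 244 hepatocytes had a UMI. It was detected in 71.4% of the control and 32.5% of the NASH cholangiocytes. The Tmem45a call was lost with a replicate block and with sums thinned to the lowest total. Among the 529 abundant genes counted below, 13.8% lay below both control mice in the same way.

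Of the other 9 genes that passed, mt-Nd3 and 3 predicted or pseudogene transcripts also differed between libraries in all other kept cells. mt-Nd3 was at 0 and 0 UMIs in control cholangiocytes and at 733 to 1254 CPM in the 5 NASH mice. Gm28438, Gm42031 and Rpsa-ps10, named here although outside the rule for named genes, were lower in NASH. In other kept cells Gm42031 was at 76.7 and 31.0 CPM in control mice against 2.88 to 5.97 CPM, and Rpsa-ps10 at 485 CPM in control mouse 1 alone against 4.74 to 7.87 CPM in the other 7 libraries. For mt-Nd3, Gm28438 and Gm42031, library and condition cannot be told apart. For Rpsa-ps10 the difference was that of 1 library, since control mouse 2 lay with the NASH mice.

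Igha, Jchain and Igkc, which encode parts of antibodies, had the largest negative log2 fold changes of the genes that passed. Igkc, the kappa light chain, was at 25523 CPM in control mouse 1 and 697 in control mouse 2, against 13.8 to 180 CPM in the 5 NASH mice. Of the 2650 Igkc UMIs of control mouse 1, 2638 lay in 1 cell of 15341 UMIs. Igha, the alpha heavy chain, Jchain, the joining chain, and Iglc3, a lambda light chain, were also lower. Among cells with at least 2 of Sox9, Krt8 and Krt18, chosen after seeing the data, the Igkc difference was -1.26 (edgeR adjusted p = 0.734) and that of Igha -2.44 (adjusted p = 0.661). In those cells Jchain was at 0 UMIs in both control mice, and Iglc3 at 0 in control mouse 1 and 77.4 CPM in control mouse 2. Pycard, which encodes the inflammasome adaptor ASC, was at 616 CPM and 0 in control mice 1 and 2 and 34.1 to 134 CPM in the 5 NASH mice (log2 fold change -3.21, edgeR adjusted p = 0.0129), and its difference among the marker-positive cells was -0.34 (adjusted p = 0.909). Without WD+F+CCl4 mouse 3 the Pycard call was lost (edgeR adjusted p = 0.0712).

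The remaining gene lists held no gene that passed in NASH against control, or only those already named. Of 18 tested genes of biliary identity and Notch signaling 0 passed by edgeR, with a median log2 fold change of -0.05. Sox9 was at 1233 and 1394 CPM in control mice 1 and 2 and 964, 664, 471, 763 and 712 CPM in the 5 NASH mice, below both (log2 fold change -0.69 ± 0.40 SE, edgeR adjusted p = 0.697). Of 35 tested genes of keratins, adhesion and junctions 0 passed. Krt18 was at 655 and 697 CPM in control mice and 849 to 1785 CPM in the 5 NASH mice, and Krt8 overlapped, at 1329 and 2168 against 1243 to 2521 CPM. Of 19 tested genes of bile transport and bile acid sensing 0 passed. Their median log2 fold change was -0.07.

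Of 12 tested genes of the primary cilium and the polycystins 0 passed, 2 had a log2 fold change above 0, and the median was -0.75 against 0.11 for all genes. Pkhd1 itself was at 289 and 310 CPM in control mice and 134 to 448 CPM in the 5 NASH mice. Of 20 tested ductular reaction genes Mmp7 was the 1 that passed, with a list median of 0.87, and Spp1 overlapped between the groups (11856 and 19433 CPM in control mice, 13071 to 19981 in the 5 NASH mice). Of 18 tested NF-kB response and innate sensing genes 0 passed and 17 lay above 0 (median 1.78). Vcam1, the vascular cell adhesion molecule, was at 19.3 CPM and 0 in control mice and 85.7 to 418 CPM in the 5 NASH mice (edgeR adjusted p = 0.157). Of 8 tested chemokines and cytokines 0 passed (median 1.85). Cxcl16, a membrane-bound chemokine, was at 48.2 CPM and 0 against 159 to 297 CPM.

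Of 8 tested complement and acute-phase genes Lcn2 was the 1 that passed. C3, the central complement component, was at 588 and 697 CPM in control mice and 1613, 1453, 1320, 2787 and 2082 CPM in the 5 NASH mice, without overlap (log2 fold change 1.77 ± 0.49 SE, edgeR adjusted p = 0.286). In hepatocytes the share of cells with a C3 UMI lay the other way, at 96.7% in control and 40.2% in NASH mice. Of 23 tested cell cycle genes 0 passed. Ccnd1, which encodes cyclin D1, was at 376 CPM and 0 in control mice and 877 to 1742 CPM in the 5 NASH mice (adjusted p = 0.330). Smpd3, the neutral sphingomyelinase, which was chosen after its values were seen, was at 9.63 and 77.4 CPM against 140 to 238 CPM (edgeR adjusted p = 0.0709).

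In the lists not yet named, no gene passed other than those given above. Of 26 tested profibrotic and matrix ligands 21 lay above 0 (median 0.84), of 13 genes of MHC class I presentation 11 (0.53), of 16 interferon-stimulated genes 10 (0.36), of 32 immediate early and dissociation stress genes 25 (0.85), of 7 senescence and p53 targets 7 (0.47), of 26 antioxidant and detoxification genes 14 (0.11) and of 15 genes of mucins and mucosal secretion 10 (0.18). Dissociation stress genes are induced by enzymatic digestion itself, and the part of digestion in their values was not tested.

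Markers of other cell types were read in the same way. The medians were 0.30 for 26 tested hepatocyte markers, 2.94 for 12 myeloid, 5.10 for 6 granulocyte, 5.38 for 3 dendritic cell, 3.57 for 5 stellate cell and fibroblast, 1.37 for 3 mesothelial, 0.67 for 3 T and NK cell, -0.63 for 4 plasmacytoid dendritic cell and 0.94 for 4 erythroid markers, and 0 of these genes passed by edgeR. The 1 tested endothelial marker stood at -0.89. Of 4 tested B and plasma cell markers 2 were lower. The dendritic cell genes summed to 28.9 and 77.4 CPM in control mice and 32.6 to 297 CPM in the 5 NASH mice, and in the marker-positive cells to 22.6 and 77.4 against 21.3 to 113 CPM, and the groups overlapped in both. The NF-kB list summed to 520 and 1007 CPM in control mice and 1106 to 2120 CPM in the 5 NASH mice, and in the marker-positive cells to 576 and 1007 against 1078 to 2128 CPM. The chemokine list summed to 260 and 387 CPM against 420 to 977 CPM, and in the marker-positive cells to 294 and 387 against 480 to 765 CPM. Mzb1, Cd8a, Ncr1, Slc4a1, Wt1 and Muc16 had 0 UMIs in the cholangiocytes, but other genes of the same lists were detected. Igkc had a UMI in 29.5% of the cells, Ptprc in 26.1%, Gpm6a in 16.9% and Hbb-bs in 9.20%.

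Non-overlap was counted as a description. Among 529 genes with a fitted mean of at least 8 on the log2 CPM scale, the 5 NASH mice all lay above both control mice for 103 (19.5%) and below both for 73 (13.8%). In the lists, 4 of 4 MHC class II genes, 5 of 11 ductular reaction genes, 3 of 6 MHC class I genes and 4 of 9 genes of keratins and junctions lay above, and 1 each of the ductular and the keratin and junction genes below. With 2 control mice, 1 of them with 4 cells, these counts carry no test.

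**Figure D4:**
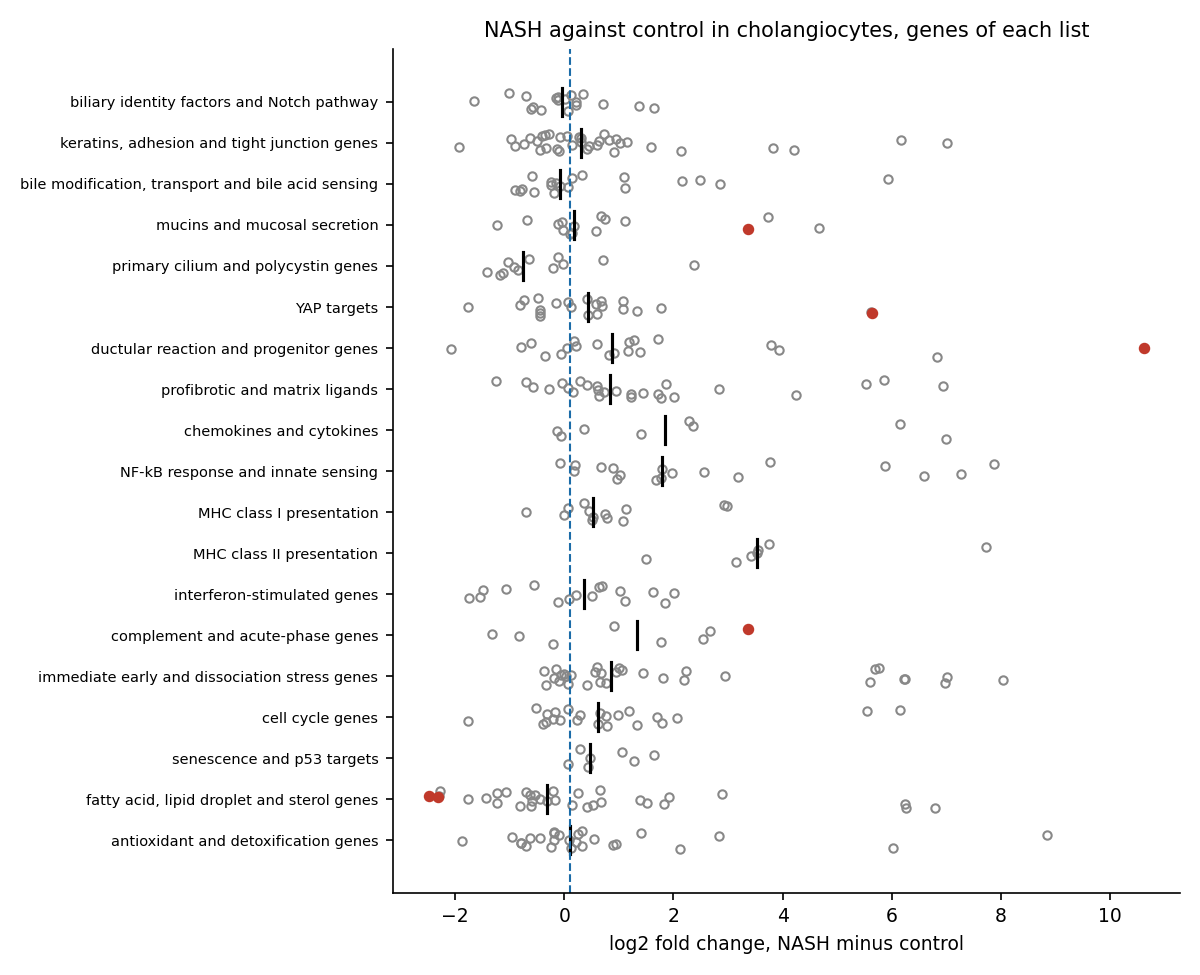
Log2 fold change of NASH over control cholangiocytes (x axis) for the tested genes of each list (y axis) other than the lists of cell type markers; filled points passed the edgeR test, open points did not, short black lines are list medians and the dashed line is the median of all 7327 genes (0.11). Filled points are Mmp7 at 10.62, Ankrd1 at 5.65, Lcn2 at 3.36 in both of its lists, and Hmgcs1 and Idi1 at -2.32 and -2.48.

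MHC class II genes, which present antigen to CD4 T cells, had high values in NASH that rested in part on the cells without biliary markers. All 7 tested class II genes had a log2 fold change above 0, with a median of 3.53, and 0 passed. Cd74 was at 424 and 387 CPM in control mice 1 and 2, at 1533, 4767 and 8198 CPM in HFD+F+CCl4 mice and at 3215 and 1782 CPM in WD+F+CCl4 mice 2 and 3 (log2 fold change 3.14 ± 0.92 SE, edgeR adjusted p = 0.333). The summed class II list held 790 and 774 CPM in control mice and 3186, 10953, 19217, 6855 and 3233 CPM in the 5 NASH mice, and in the marker-positive cells 689 and 774 CPM against 1398, 1270, 5745, 5167 and 2301 CPM.

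Among the 239 cells with at least 2 of Sox9, Krt8 and Krt18, Cd74 was at 373 and 387 CPM in control mice and 779, 678, 2872, 2573 and 1373 CPM in the same NASH mice. The NASH mice thus still lay above the control mice, and HFD+F+CCl4 mice 2 and 3 dropped the most. H2-Ab1, a class II beta chain, went from 1938 to 229 CPM in HFD+F+CCl4 mouse 2 and from 3570 to 852 CPM in mouse 3. Myeloid markers moved with it. Of the 15 myeloid genes, Csf1r was at 0 by selection, Lyz2 was the most abundant, and their sum was 270 and 542 CPM in control mice and 1128 to 3000 CPM in the 5 NASH mice. In the marker-positive cells that sum was 237 and 542 CPM against 868 to 2004 CPM. Cd74 was found in 67.3% of cholangiocytes thinned to 2000 UMIs and in 43.3% of thinned hepatocytes, which lack class II in the healthy liver. The part of free RNA and of leukocytes in the class II values was not tested.

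**Figure D5:**
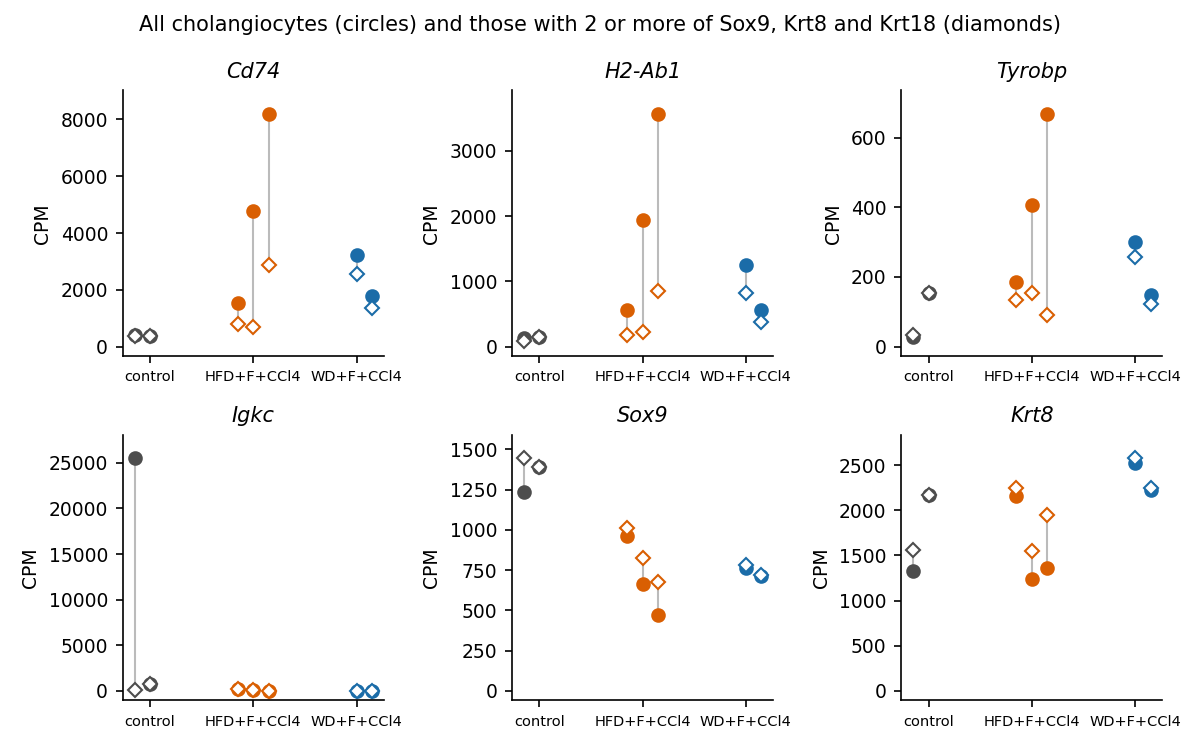
CPM (y axes, linear) of 6 genes in all cholangiocytes (circles) and in those with at least 2 of Sox9, Krt8 and Krt18 (diamonds) of each mouse, by group (x axes), joined by a line per mouse; WD+F+CCl4 mouse 1 is not drawn. Cd74, H2-Ab1 and Tyrobp drop in HFD+F+CCl4 mice 2 and 3, Igkc drops in control mouse 1, and Sox9 and Krt8 are as high or higher in the marker-positive cells of every mouse drawn.

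Markers of other cells were also carried by few cells. In WD+F+CCl4 mouse 2 the granulocyte genes summed to 16974 CPM, against 57.8 and 0 CPM in control mice and 82.1 to 502 CPM in the other 4 NASH mice of the fit. In its marker-positive cells the sum was 17367 CPM, and 1 cell of 14104 UMIs held 2027 of the 2035 S100a8 UMIs. In HFD+F+CCl4 mouse 3 the erythroid genes summed to 8041 CPM, and 1 cell held 177 of its 180 Hba-a1 UMIs. Hepatocyte genes summed to 17211 and 22762 CPM in control mice and 14957 to 28464 CPM in the 5 NASH mice, without a separation of the groups.

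Each model was also set against control mouse 1 by edgeR in the same fit. In HFD+F+CCl4, 2 genes (0.0273%) were higher and 7 (0.0955%) lower, and in WD+F+CCl4, 4 (0.0546%) were higher and 10 (0.136%) lower. Both comparisons share the control mouse, so their values are given side by side. Mmp7 passed in both (edgeR adjusted p = 0.00865 and 0.000905). Ankrd1 and Lcn2 passed in WD+F+CCl4 (log2 fold changes 6.28 and 4.03, edgeR adjusted p = 0.0195 for each) and not in HFD+F+CCl4 (5.02 and 2.70, adjusted p = 0.128 and 0.188). Tmem45a passed in HFD+F+CCl4 (-3.12, edgeR adjusted p = 0.00347) and not in WD+F+CCl4 (-2.23, adjusted p = 0.0697). For WD+F+CCl4, 7 genes passed without WD+F+CCl4 mouse 2, 33 without HFD+F+CCl4 mouse 1, 23 without HFD+F+CCl4 mouse 2 and 29 without HFD+F+CCl4 mouse 3. For HFD+F+CCl4, 28 passed without HFD+F+CCl4 mouse 1.

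The last contrast of the fit set the models against each other. Between WD+F+CCl4 mice 2 and 3 and the 3 HFD+F+CCl4 mice, 0 of 7327 genes (0%) passed in either direction by edgeR, 240 had an unadjusted p under 0.05, and DESeq2 called 2. In the simulated data for this contrast, edgeR recovered 76.5% of genes given a log2 fold change of 2. Among the named genes of smallest p, which did not pass, Mmp7 was at 1392 and 984 CPM in WD+F+CCl4 mice 2 and 3 against 279 to 437 CPM in HFD+F+CCl4 mice (log2 fold change 1.82 ± 0.32 SE, edgeR adjusted p = 0.276). Msmo1, a sterol demethylase, was at 38.0 and 32.6 CPM against 103 to 119 CPM (-1.68 ± 0.35, adjusted p = 0.487). S100a8, S100a9 and Ngp, all granulocyte genes, were high through WD+F+CCl4 mouse 2. Ifitm1, Srgn and Gngt2 followed Msmo1 among the negative values by p (-3.44, -1.63 and -1.21, edgeR adjusted p = 1.00 for each).
Without WD+F+CCl4 mouse 3, 12 genes passed, and without HFD+F+CCl4 mouse 1, 3.

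To learn whether a change was larger in cholangiocytes than in another non-immune cell type, the NASH effect was compared with that in endothelial cells of the same 6 mice. Control mouse 1 was the only control mouse among them. In data simulated from these samples, the test recovered 6% of 200 genes given a log2 fold change of 2. A gene that did not pass is thus not shown to change alike in both types. Of 9917 genes tested, 4 (0.0403%) had a higher and 3 (0.0303%) a lower effect in cholangiocytes by edgeR with the mouse as a block, and 0 passed without the block, where 525 had an unadjusted p under 0.05. Serpina1c, a liver alpha-1 antitrypsin gene, was at 183 and 77.4 CPM in control and 1170, 1209, 779, 487 and 1183 CPM in NASH cholangiocytes of the fit, whereas in endothelial cells it was at 633 and 528 CPM in control and 0 to 62.7 CPM in NASH mice. The 2 cell types thus differed in direction (interaction 7.00 ± 0.87 SE, edgeR adjusted p = 0.00503). Vtn, Agt and Apob, which encode the plasma proteins vitronectin, angiotensinogen and apolipoprotein B, were the other 3 higher ones, and in each of them the endothelial values were lower in NASH than in control mice. Igha, Igkc and Jchain were the 3 lower ones. Among cells with at least 2 of Sox9, Krt8 and Krt18 the interactions of Igkc and Igha were 2.19 and 2.21 and did not pass. Mmp7 could not be separated by this fit (adjusted p = 1), with 0 UMIs in control cells of both types. Without HFD+F+CCl4 mouse 1, 18 genes passed, and without WD+F+CCl4 mouse 2, 18.

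Cell cycle genes were also counted per cell. UMIs of at least 2 of 10 cell cycle genes were found in 24 of 261 cholangiocytes (9.20%) and, after thinning to 2000 UMIs, in 15 of 257 (5.84%). The thinned share was 11.5% of 104 hepatocytes and 1.71% of 1575 endothelial cells. By mouse, the thinned counts were 1 of 17 and 0 of 2 in control mice 1 and 2, 0 of 60, 3 of 30 and 1 of 20 in HFD+F+CCl4 mice, and 0 of 1, 3 of 40 and 8 of 87 in WD+F+CCl4 mice. These counts are too small to order the groups.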

How the data were processed

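Livers of 8 mice were perfused and digested with collagenase IV, papain and DNase, red and dead cells were removed, and 10x 3′ libraries were sequenced. The authors aligned reads to GRCm38 with Cell Ranger and deposited raw UMI counts for 55450 genes in 88581 barcodes, of which 80474 passed the filters of over 500 genes and under 25% mitochondrial UMIs. Free RNA was not removed. Doublets were ranked with Scrublet at an assumed 0.8% per 1000 barcodes and left out only as an alternative.

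Counts were summed per mouse and cell type and tested with edgeR 4.0.16 (quasi-likelihood, TMM scaling, filterByExpr with a minimum count of 10, Benjamini-Hochberg adjusted p under 0.05) over mice with at least 10 cells, in R 4.3.3. DESeq2 1.42.0 was the alternative tool. CPM are UMIs per 1000000 UMIs of the summed cells. Hepatocytes held at least 10% of their UMIs from hepatocyte markers and endothelial cells at least 3 UMIs of Pecam1, Kdr, Stab2, Clec4g and Ptprb together, and both held none of the epithelial or immune selection genes. Shares were compared by two-sided exact permutation tests in SciPy 1.17.1, and intervals are exact binomial (Clopper-Pearson). The limit set by a count of 0 is 3 counts. Intervals and limits cover counting error only. Nothing in the labels says more of the mice than their group, so p-values measure the spread between these samples.

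Genes were named by rule: up to 8 rises and 8 falls that passed with a fitted mean of at least 6 on the log2 CPM scale, or the 4 of smallest p in each direction where fewer than 4 passed, the listed genes that passed, the 2 most abundant genes of each of the 31 lists, and the 6 markers. Examples from the comparison with hepatocytes were picked after their values were seen. Members and lists were chosen with earlier results of these data known. The tests were checked on simulated counts. Alternatives covered the selection, doublets, scaling, the filter on low counts, depth, the replicate block and each mouse left out. Some genes of the lists are counted but not reported by name here.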

Additional observations from a re-analysis of the deposited data

Results flagged for a closer look

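For 7 genes the NASH effect differed between cholangiocytes and endothelial cells in a test of the difference itself (edgeR with the mouse as a block). Control mouse 1 was the only control mouse in that fit, and without the block all 7 calls were lost. With mice of at least 4 cholangiocytes, a choice made after seeing the data, the Jchain, Igkc and Igha calls were lost. Serpina1c, Vtn, Apob and Agt kept theirs at that setting. The interaction on the log2 scale was 7.00 for Serpina1c, 6.97 for Vtn (adjusted p = 0.0148), 5.48 for Apob (adjusted p = 0.0377) and 4.69 for Agt (adjusted p = 0.0338), all secreted plasma proteins of hepatocytes. Vtn stood at 28.9 and 77.4 CPM in control cholangiocytes and 55.3 to 459 CPM in those of the 5 NASH mice in the fit, and at 183 and 150 CPM in control endothelial cells and 0 to 40.8 CPM in those of the same NASH mice. Serpina1c and Apob are also hepatocyte markers, and the part of free hepatocyte RNA in these values was not tested. The interaction was -6.05 for Jchain (adjusted p = 0.0148), -5.49 for Igkc and -5.37 for Igha (edgeR adjusted p = 0.00503 for each of the latter). Igkc in control mouse 1 stood at 25523 CPM in cholangiocytes and 691 CPM in endothelial cells, and 1 cell held 2638 of its 2650 UMIs in cholangiocytes. In control mouse 2 it stood the other way, at 697 and 3942 CPM.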

How the results depend on the processing

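The higher mean share in NASH kept its direction under every alternative run, from 0.0418 points with the selection made after thinning to 800 UMIs to 3.39 points of non-immune cells, and never passed; leaving out 1 mouse gave 0.162 to 0.311 points. The WD+F+CCl4 minus HFD+F+CCl4 share ran from -0.128 to 0.243 points with 1 mouse left out. With 1 mouse left out, 10 to 44 genes passed for NASH, 9 to 28 for HFD+F+CCl4 and 7 to 33 for WD+F+CCl4 against control, 0 to 12 between the models, 436 to 1561 against hepatocytes and 6 to 18 for the interaction; control mouse 1 could not be left out of a comparison with control. With every gene of at least 1 count, these counts were 100, 100, 94, 47, 2339 and 92. DESeq2 called 15 for HFD+F+CCl4, 22 for WD+F+CCl4, 2 between the models and 15 for the interaction. Sums thinned to the lowest total gave 6, 4 and 5 against control. Without cells holding Ptprc, 3 passed between the models. Mice with at least 4 cholangiocytes, a choice made after seeing the data, gave 43, 34 and 47 against control, 3 between the models and 49 for the interaction. The cause was not tested.

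Same-numbered mice shared only a number (correlations of deviations -0.03 and -0.11). With the replicate block, 10 genes passed in each comparison with control and 9 between the models, and without it 0 passed for the interaction. Ankrd1 was lost in 6 of 20 alternatives, Lcn2 in 8, Idi1 in 6, Hmgcs1 in 4, Tmem45a in 2 and Mmp7 in 1, and Pycard in 5 of 19. With sums thinned to the lowest total, Ankrd1, Lcn2, Hmgcs1, Idi1, Tmem45a and Pycard lost their calls, and Mmp7 kept its own. The sign turned for S100a8 between the models, which had not passed (-0.0845 with at least 5 UMIs of the epithelial genes). It also turned for the interactions of Igkc (2.19) and Igha (2.21) in cells with at least 2 of Sox9, Krt8 and Krt18, where both calls were lost. Genes could not be fitted after thinning to 800 UMIs. The control values rest on 21 cells in 2 mice, with 116745 UMIs in all.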

Other observations

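Rgs5, a regulator of G protein signaling used as a marker of pericytes and stellate cells and chosen here after its values were seen, was detected in 60.5% of cholangiocytes and 1.86% of all other kept cells. It stood at 231 and 77.4 CPM in control mice 1 and 2, at 474, 609 and 651 CPM in HFD+F+CCl4 mice and at 11196 (1 cell), 1779 and 942 CPM in WD+F+CCl4 mice, so that all 6 NASH mice exceeded the 2 control mice, as did 19.5% of the abundant genes over the 5 NASH mice in the fit. The difference did not pass (log2 fold change 2.03, edgeR adjusted p = 0.272). Of the other stellate cell and fibroblast genes, Reln, which encodes reelin, was at 0 UMIs in both control mice and at 7.94, 12.9, 11.6, 48.3 and 43.0 CPM in the 5 NASH mice, and did not pass. Dcn, which encodes decorin, was at 60.0 CPM in HFD+F+CCl4 mouse 2, at 2.65 CPM in mouse 1 and at 0 in the other 6 mice. The part of stellate cells in these values was not tested.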
